A study of Mus musculus with 2 samples.

Results

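The 10 genes described here move fuel between blood, astrocytes, oligodendrocytes and neurons: the glucose transporters *Slc2a1* and *Slc2a3*, the monocarboxylate transporters *Slc16a1*, *Slc16a3* and *Slc16a7*, the enzymes *Hk2* and *Pfkfb3* of glycolysis, the lactate dehydrogenases *Ldha* and *Ldhb*, and the glycogen synthase *Gys1*. They were found by gene symbol among the gene probes of a mouse array and were 10 of its 36998 gene symbols, with 20 of its 56605 probes. The striatum of MPTP-treated WT mice was compared with that of MPTP-treated Cx30 KO mice, which lack connexin 30, the astrocytic gap junction protein encoded by *Gjb6*. MPTP is a toxin that damages dopaminergic neurons and is used to model Parkinson's disease. *Slc16a1* and *Pfkfb3* were lower in Cx30 KO mice and passed the study's criteria for a difference, *Gys1*, *Hk2* and all 4 detected probes of *Slc16a7* lay lower without passing them, and the probes of *Ldha*, *Ldhb* and *Slc16a3* gave nearly the same signal in both genotypes. The calls of *Slc16a1* and *Pfkfb3* rest on a Z-score taken among probes of similar signal, a choice made here, and neither passed when it was taken over all detected probes.

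Each genotype was measured on 1 array, which held RNA pooled from the striata of 2 male mice. Both groups were 8 weeks old, were injected with MPTP 4 times, 2 h apart, at 20 mg/kg each time, and were sampled on day 1 after MPTP. By the labels, the strain was C57BL/6J in the WT group and Cx30-LacZ in the Cx30 KO group. The methods instead describe the WT controls as non-mutant offspring from interbred heterozygotes. The knockout is constitutive, so every cell of the Cx30 KO mice carries it. Saline-treated mice were not analysed here, and the ratios therefore compare genotypes after MPTP and not the response to MPTP. With 1 array for each genotype, no test and no p-value could be had. Each value describes these arrays, and the spread between mice is unknown.

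In the brain, glucose crosses the endothelium and enters astrocytes through GLUT1, the product of *Slc2a1*, and enters neurons mainly through GLUT3, the product of *Slc2a3*. Astrocytes hold most of the brain's glycogen and are strongly glycolytic. In the lactate shuttle model, they release lactate through the transporters of *Slc16a1* (MCT1) and *Slc16a3* (MCT4), and neurons take it up through the high-affinity transporter of *Slc16a7* (MCT2). Oligodendrocytes also use MCT1 to supply lactate to axons. Connexin channels between astrocytes let glucose and lactate pass from cell to cell.

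Each measurement is the signal of a 60-base probe, so the probe sequence states which stretch of a transcript was read. The probes of *Slc16a1* and *Pfkfb3*, the genes whose brightest probe passed the criteria, are shown beside those of the 2 lactate dehydrogenases, whose ratios lay near 0, 5′ to 3′, with mm9 coordinates as given in the files. They are printed in lower case, as no base within them was singled out. The first 30 of the 60 bases are shown where it was not known whether the probe lies in a coding exon. The longer interval of the second *Pfkfb3* probe (1414 bases) and of the second *Ldhb* probe (2823 bases) shows that each is joined from more than 1 exon.
Slc16a1 probe, first 30 bases, chr3:104460941-104461000, plus strand: atgggttcagtgtaaggataagaggaaaga
Pfkfb3 probe 1, first 30 bases, chr2:11393579-11393638, minus strand: tggctttaattgttcattggttcggggcct
Pfkfb3 probe 2, whole, chr2:11404189-11405602, minus strand: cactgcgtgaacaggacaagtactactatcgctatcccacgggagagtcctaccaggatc
Ldha probe 1, first 30 bases, chr7:54110937-54110996, plus strand: tgcatatggatgatggaaccaaccacccaa
Ldha probe 2, whole, chr7:54103010-54103069, plus strand: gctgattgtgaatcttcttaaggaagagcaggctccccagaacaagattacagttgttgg
Ldhb probe 1, first 30 bases, chr6:142438829-142438888, minus strand: atgtaggtcacagtttgcttcttccctgac
Ldhb probe 2, whole, chr6:142444206-142447028, minus strand: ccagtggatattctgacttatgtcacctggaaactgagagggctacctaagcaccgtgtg

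Of the 20 member probes, 17 were well above background on both arrays, and none was saturated. The other 3, the dimmer *Slc16a3* probe and the dimmest 2 of the 6 *Slc16a7* probes, were well above background on neither array and have no ratio here. No member was detected through 1 genotype alone. Signals are given in the scanner's units with the error that the scanning software assigns to the spot, which is not an error between mice. The log2 ratio is Cx30 KO over WT after each array was scaled to its 75th percentile (401 in WT and 382 in Cx30 KO), so a raw signal that is equal on both arrays gives a log2 ratio slightly above 0. The scanner error of a member's log2 ratio was 0.20 for the median probe and at most 0.31. As a further technical yardstick, different probes of 1 gene differed with an SD of 0.26 in log2 ratio over 7147 genes. The targeted gene *Gjb6* had a signal of 1788 ± 179 in WT and of 111 ± 11.6 in Cx30 KO and was 15.4-fold lower there, in the direction of the genotype labels. Its probe lies at chr14:57742226-57742285, and no member probe lies on chromosome 14.

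**Figure D1:**
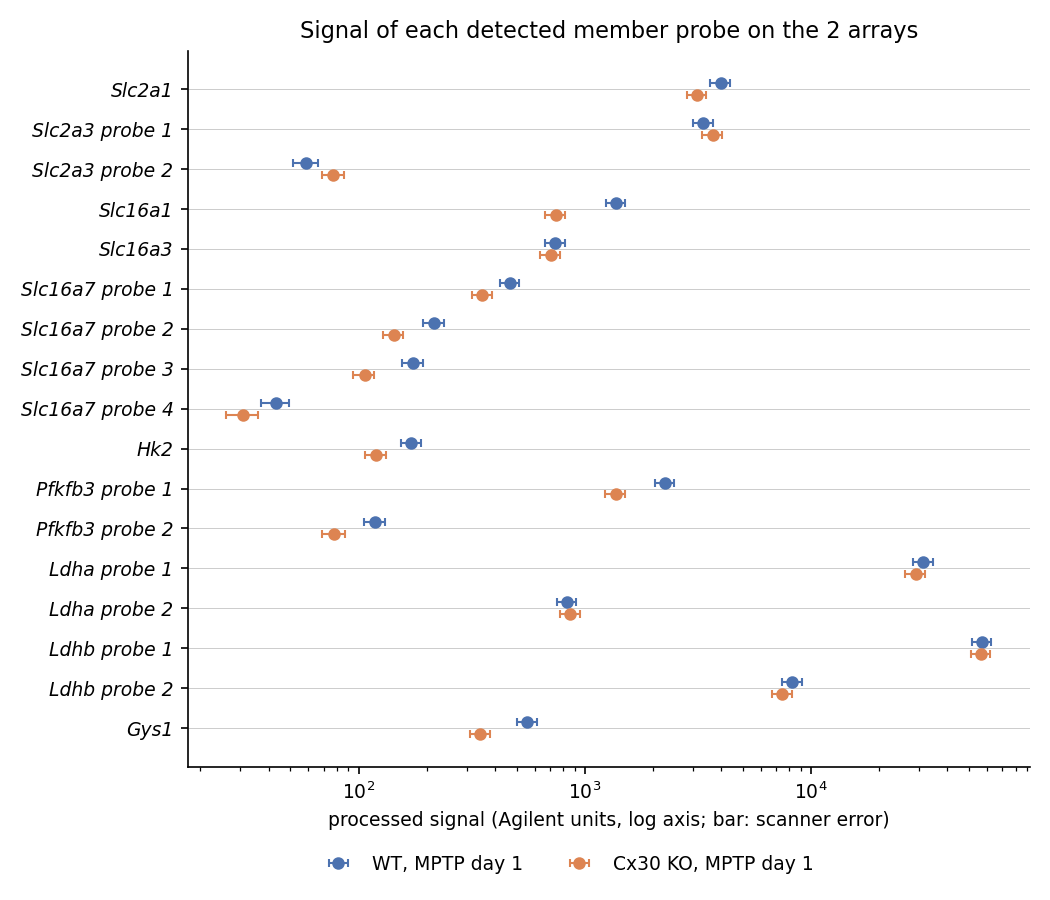
Processed signal in scanner units (log axis) of the 17 detected probes of the 10 genes, with WT in blue and Cx30 KO in orange, 1 array of 2 pooled mice each; bars are the scanner's error of the spot. The *Slc16a1* signal is 1374 in WT and 742 in Cx30 KO with no overlap of the bars. The bars also do not overlap for *Slc2a1*, *Hk2*, *Gys1*, the dimmer *Slc2a3* probe and the *Pfkfb3* and *Slc16a7* probes. Those of both *Ldha* and both *Ldhb* pairs, *Slc16a3* and the brighter *Slc2a3* probe overlap. Signals are shown before scaling, and levels of different probes are not comparable.

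The glucose transporters of the endothelium and astrocytes and of neurons lay in opposite directions by small amounts. *Slc2a1* had a signal of 3975 ± 398 in WT against 3132 ± 313 in Cx30 KO, for a log2 ratio of -0.27 with a Z-score of -0.998. The Z-score is the distance of a probe's log2 ratio from the mean of the 1000 probes nearest to it in signal, in SDs of those probes, and the study's criteria ask for both a Z-score and a ratio: 2.0 or more and 1.5 or more for higher genes, -2.0 or less and 0.66 or less for lower genes. The brighter *Slc2a3* probe had 3335 ± 334 in WT and 3669 ± 367 in Cx30 KO, for a log2 ratio of 0.21. The dimmer one, which joins exons at chr6:122681586-122682419, had 58.7 ± 7.30 and 77.3 ± 8.63, a log2 ratio of 0.47. Both probes of *Slc2a3* were thus higher in Cx30 KO, and neither passed the criteria, with Z-scores of 0.74 and 0.84. The differences of *Slc2a1* and of the brighter *Slc2a3* probe were about as large as the scanner error of the ratio or the SD between probes of a gene.

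Among the lactate carriers, *Slc16a1* stood apart. Its signal was 1374 ± 137 in WT and 742 ± 74.3 in Cx30 KO, which is 1.76-fold lower, with a log2 ratio of -0.82 and a Z-score of -2.98. It was the lowest ratio among the 17 detected member probes, and 3.78% of the 22008 detected genes had a lower one. *Slc16a1* has a single probe on the array, so no other probe repeats the reading. With the Z-score over all detected probes it was at -1.40 and did not pass. *Slc16a3*, the carrier through which strongly glycolytic cells export lactate, had 740 ± 74.1 in WT and 706 ± 70.7 in Cx30 KO at chr11:120820023-120820082. After scaling its log2 ratio was 0.00, the value nearest to 0 among the members.

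*Slc16a7* is the high-affinity lactate carrier of neurons, and its probes lie on chromosome 10. Its brightest probe, at chr10:124656357-124656416, had 466 ± 46.9 in WT and 352 ± 35.5 in Cx30 KO, for a log2 ratio of -0.33 with a Z-score of -1.03. The other 3 detected probes had log2 ratios of -0.52, -0.64 and -0.41. All 4 were lower in Cx30 KO, yet none reached a Z-score of -2.0, the nearest being -1.77 for the probe at chr10:124664842-124664901, whose signal was 174 ± 17.9 in WT and 106 ± 11.3 in Cx30 KO. That probe overlaps the ends of its neighbour at chr10:124664784-124664843 by a pair of bases, so the probes share a transcript and, in part, a site, and they are no replicates of the comparison. The range between the 4 probes, 0.31 in log2 ratio, was comparable with the scanner error of a single ratio.

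Of the enzymes that control the entry of glucose into glycolysis, the members *Pfkfb3* and *Hk2* were lower in Cx30 KO. *Pfkfb3* makes fructose 2,6-bisphosphate, the activator of phosphofructokinase, and astrocytes are known for a high level of this enzyme. Its brighter probe had 2256 ± 226 in WT and 1367 ± 137 in Cx30 KO, a ratio of 0.637 (1.57-fold lower) and a log2 ratio of -0.65 with a Z-score of -2.30, past the criteria. Its other probe had 119 ± 12.8 and 78.0 ± 8.89, a log2 ratio of -0.53 with a Z-score of -1.34, in the same direction and 0.12 from the first but not past the criteria. *Pfkfb3* also did not pass with the Z-score over all detected probes (-1.12) or with the mean of its probes (-1.72). *Hk2*, the hexokinase that phosphorylates glucose and binds mitochondria, had 171 ± 17.7 in WT and 120 ± 12.6 in Cx30 KO at chr6:82675056-82675115. Its log2 ratio of -0.44 exceeded the scanner error of 0.21, and its Z-score was -1.25.

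The lactate dehydrogenases, which interconvert pyruvate and lactate, had nearly equal signals in both genotypes. *Ldha*, whose subunit prevails in glycolytic tissue, had 31302 ± 3130 in WT and 28924 ± 2892 in Cx30 KO on its brighter probe, a log2 ratio of -0.04, and 833 ± 83.4 and 861 ± 86.2 on the other, a log2 ratio of 0.12. *Ldhb*, the subunit that prevails in oxidative cells and neurons, had 56902 ± 5690 and 56240 ± 5624 on its brighter probe, a log2 ratio of 0.05, and 8264 ± 826 and 7449 ± 745 on the other, a log2 ratio of -0.08. All 4 ratios were smaller than their scanner error, and the 2 probes of each gene lay on opposite sides of 0. The log2 ratio of *Ldha* minus that of *Ldhb*, on the brighter probes, was -0.10.

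*Gys1*, the glycogen synthase of brain and muscle, had 558 ± 55.9 in WT and 345 ± 34.7 in Cx30 KO at chr7:52711790-52711849. Its ratio of 0.650 was within the study's ratio limit and its log2 ratio was -0.62, while its Z-score of -1.89 fell short of the Z limit. *Gys1* and the brighter *Pfkfb3* probe therefore differed little in ratio but lay on opposite sides of the Z limit. *Gys1* has 1 probe, as have *Slc2a1*, *Slc16a1* and *Hk2*.

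**Figure D2:**
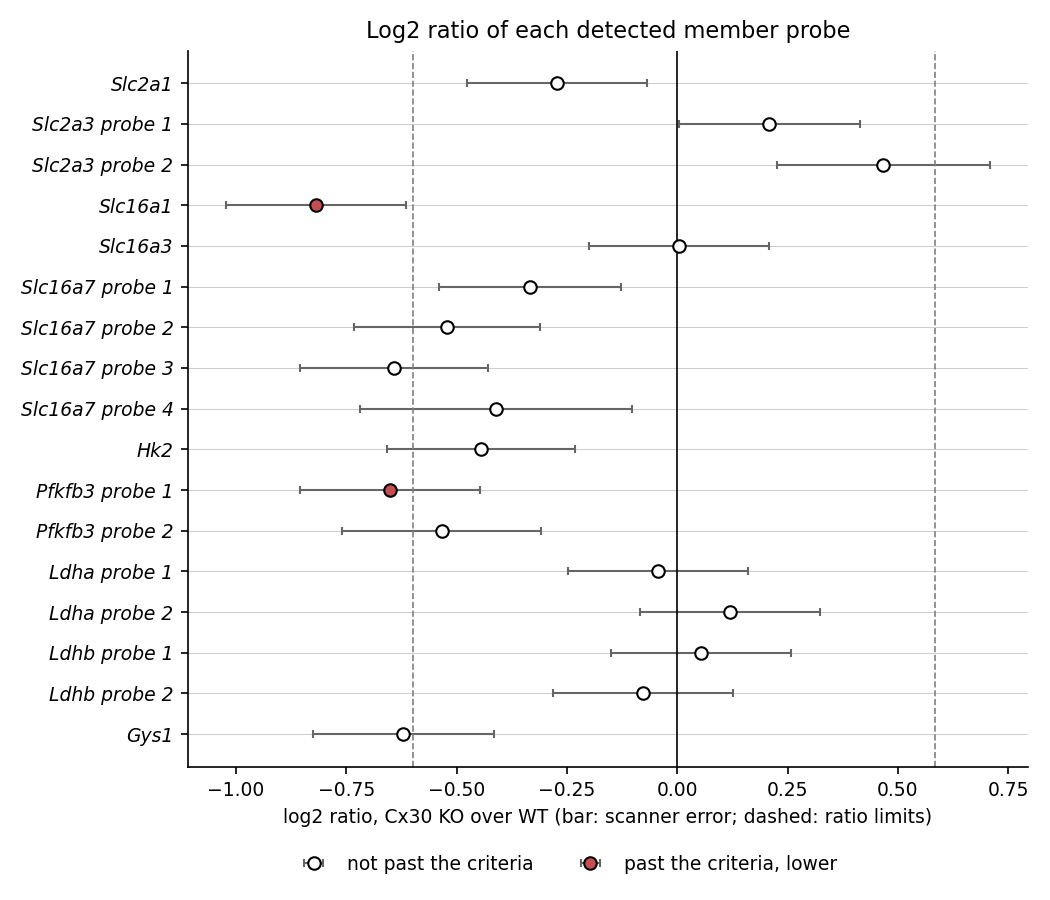
Log2 ratio of Cx30 KO over WT (x axis) for the 17 detected probes, with the scanner error of the ratio as bars, the ratio limits as dashed lines, and the probes past both criteria in red. *Slc16a1* at -0.82 and *Pfkfb3* probe 1 at -0.65 are the 2 red points, *Gys1* and the third *Slc16a7* probe also lie beyond the lower ratio limit, and the *Ldha* and *Ldhb* probes straddle 0.

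Taken by probe, 12 of the 17 detected member probes were lower in Cx30 KO and 5 were higher, against 44.4% lower among all 33910 detected probes. The criteria were passed by 2 of the 17 in the lower direction, where 2.93% of all detected probes passed, and by 0 in the higher direction, where 2.08% passed. By gene, on the brightest detected probe, 7 of the 10 were lower and 3 higher, and 2 passed as lower, where 3.39% of the 22008 detected genes passed as lower and 2.39% as higher. The median log2 ratio of the 10 genes was -0.30, beside 0.03 for all detected genes. With 10 genes these shares rest on very few counts. Of the 17 probes, 4 had a ratio at or under 0.66 whatever their Z-score, beside 5.98% of all detected probes.

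Cell type markers also differed between the arrays, and their part in the member results was not tested. In whole tissue, fewer cells of a type and less RNA in each cell cannot be told apart. The summed signals of the lists are raw, before scaling, and are weighted toward the brightest genes. General astrocyte markers were level as a group, with 6 of 12 lower, a median log2 ratio of -0.03 and a summed signal of 109442 in WT against 103851 in Cx30 KO, although *Aqp4*, the water channel of astrocyte endfeet, was past the criteria at -0.95. Its 4 probes ranged from -4.24 to 0.02 and so disagreed. Genes of reactive astrocytes were lower, 10 of 12 past the criteria with a median of -1.40 and summed signals of 18921 and 7172. These 10 were *Gfap*, *Vim*, *Serpina3n*, *Cd44*, *Timp1*, *S1pr3*, *Osmr*, *Emp1*, *Tm4sf1* and *S100a10*, of which *Osmr* had probes from -1.45 to 0.09. The other 2, *Lcn2* at 0.35 and *Cd109* at 0.41, lay higher without passing, and *Cd109* was not well above background in WT.

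Oligodendrocyte markers, of a cell type in which *Slc16a1* is prominent, were lower in 7 of 7 with a median of -0.73, a value near that of *Slc16a1*, and their summed signal was 157109 in WT and 93330 in Cx30 KO. *Mbp*, *Mog*, *Mag* and *Cldn11* were among those past the criteria on their brightest probe, while probes of *Mbp* ranged from -0.73 to 0.12 and those of *Mag* from -0.74 to 0.24. Endothelial markers, of another cell type that uses *Slc16a1* and *Slc2a1*, had a median of -0.17 with 6 of 8 lower and summed signals of 19012 and 15982, and *Flt1* was past the criteria at -0.93 with probes ranging up to 0.52. Mural cell markers had a median of -0.16 with none of 6 past the criteria and summed signals of 4920 and 4478. Microglial markers were lower in 7 of 8, with a median of -0.52 and *Aif1*, *Cx3cr1*, *P2ry12* and *Tmem119* past the criteria, and their summed signals were 91249 and 83919. Most of these sums came from *Itgam*, with 60045 in WT and 62438 in Cx30 KO and a log2 ratio of 0.13.

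Markers of striatal projection neurons had a median of -0.16, with none of 9 past the criteria and summed signals of 491715 in WT against 485627 in Cx30 KO. Cortical excitatory neuron markers, which should be low in striatum, were higher in Cx30 KO in 6 of 6, with *Slc17a7*, *Tbr1*, *Neurod2* and *Neurod6* among those past the criteria and a summed signal of 175 in WT against 1391 in Cx30 KO. On the WT array, 4 of these 6 were not well above background, and with those at their limit the median was 2.14. Red blood cell genes were lower: *Hba-a1*, *Hbb-b1* and *Hbb-bt* were past the criteria with a median of -1.93, or -1.63 with *Hbb-b1*, not well above background on the Cx30 KO array, set at its limit. The other 3 of the 6 listed were not detected, and the summed signals were 3484 and 1039. Choroid plexus markers had a median of 0.11 with 3 of 6 lower, *Ttr* past the criteria at -1.27, and summed signals of 1634 and 1391. The pools of tissue thus differed in neuronal, glial and blood transcripts beside the member genes.

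**Figure D3:**
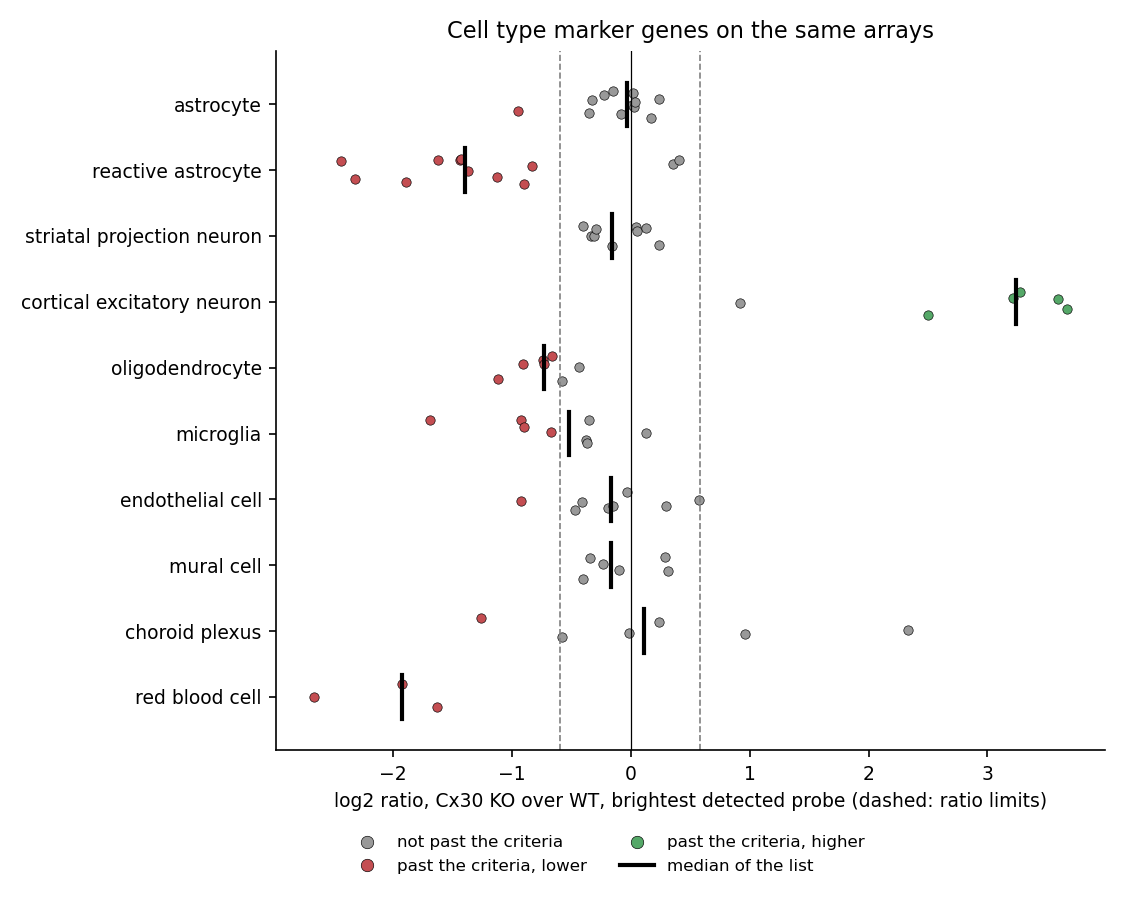
Log2 ratio of Cx30 KO over WT (x axis) for cell type marker genes (rows of points, 1 point for each detected gene), with list medians as black bars, genes past the criteria in red (lower) or green (higher), and dashed ratio limits. Oligodendrocyte (median -0.73), reactive astrocyte (-1.40) and red blood cell (-1.93, or -1.63 with 1 gene at its limit) genes lie to the left, cortical neuron genes to the right, and general astrocyte and striatal neuron genes around 0.

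The other genes of the same pathways were read from 10 lists of 156 genes, of which 140 were detected. They had a median log2 ratio of -0.01, with 72 lower and 68 higher. Past the criteria, 6 genes were lower, which is 4.29% of those detected where 3.39% of all genes passed, and 4 were higher, which is 2.86% where 2.39% passed. Both shares lay near those of all detected genes.

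Of the other glucose transporters, 9 of 11 were detected, with a median of 0.21 and 7 higher. *Slc2a4*, the insulin-responsive transporter, had 150 ± 15.7 in WT and 293 ± 29.6 in Cx30 KO, and its log2 ratio was 1.04 on this probe and 2.86 on the dimmer one. *Slc2a5*, a fructose transporter that marks microglia in brain, had 190 ± 19.5 and 96.8 ± 10.5, a log2 ratio of -0.90. Both passed the criteria, in opposite directions.

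Of the other monocarboxylate transporters, their chaperones and the lactate receptor, 12 of 16 were detected, with a median of 0.07. *Slc16a11*, a relative of the lactate carriers, had 1089 ± 109 in WT and 1564 ± 156 in Cx30 KO, for a log2 ratio of 0.59, and passed as higher. *Hcar1*, the lactate receptor, had 41.3 ± 6.63 in WT, was not well above background on the Cx30 KO array, and was at least 2.27-fold lower there. *Bsg*, the chaperone that brings MCT1 and MCT4 to the membrane, had a log2 ratio of -0.26, and *Emb*, the chaperone of MCT2, one of 0.04.

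As a group, the remaining glycolytic enzymes did not share the lower values of *Hk2* and *Pfkfb3*. Of 23 listed, 21 were detected, 10 lower and 11 higher, with a median of 0.01. The lowest of them, *Hkdc1*, was at -0.65, near the brighter *Pfkfb3* probe, and did not pass the criteria. The abundant enzymes *Gapdh*, *Aldoa*, *Pgk1* and *Pkm* had log2 ratios of 0.09, 0.07, 0.01 and 0.06. Among the relatives of *Pfkfb3* and the genes of gluconeogenesis, 6 of 10 were detected and none passed, and the one farthest from 0 was *Pfkfb1* at 0.67 with signals of only 22.9 ± 5.05 and 34.7 ± 5.29. *Pfkfb2* and *Pfkfb4*, the other members of that family detected, had log2 ratios of -0.19 and 0.24.

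Of the 28 genes of glycogen metabolism beside *Gys1*, 26 were detected, 17 lower and 9 higher, with a median of -0.14. Past the criteria as lower were 2, *Ppp1r3c* and *Phkb*. That is 7.69% of those detected, where 3.39% of all detected genes passed as lower. The share was 9.52% in the hypoxia list, and 11.1% and 8.33%, from 1 gene each, in the lists of other glucose and monocarboxylate transporters. *Ppp1r3c*, which brings protein phosphatase to glycogen and promotes its synthesis, had 1947 ± 195 in WT and 1185 ± 119 in Cx30 KO, for a log2 ratio of -0.64. *Phkb*, a regulatory subunit of phosphorylase kinase, had 434 ± 43.6 and 227 ± 23.0, a log2 ratio of -0.87, but its 3 probes ranged from -1.26 to 0.00. These act on opposite arms of the pathway, since phosphorylase kinase promotes glycogen breakdown. The branching enzyme *Gbe1*, the glycogenin gene *Gyg* and the UDP-glucose enzyme *Ugp2*, which work beside *Gys1* in synthesis, had log2 ratios of -0.49, -0.37 and -0.45, and the brain phosphorylase *Pygb* one of 0.01. None of these 4 passed the criteria.

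Further downstream, none of the 15 genes of pyruvate transport and pyruvate dehydrogenase passed, with 10 lower and a median of -0.12. *Pdp1*, the phosphatase that activates pyruvate dehydrogenase, was farthest from 0 at -0.58, with 7682 ± 768 in WT and 4874 ± 487 in Cx30 KO. Of the pentose phosphate pathway 8 of 9 genes were detected, 7 lower, with a median of -0.18 and the transaldolase gene *Taldo1* farthest at -0.43. The 10 genes of the glycerol phosphate and malate-aspartate shuttles had a median of -0.05, with *Slc25a13*, an aspartate-glutamate carrier, farthest at 0.26. No gene of these lists was past the criteria.

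Several members are textbook targets of hypoxia-inducible factors. Of 22 such factors and targets outside the members, 21 were detected, 13 higher and 8 lower, with a median of 0.06. *Hmox1*, haem oxygenase, had 4271 ± 427 in WT and 2283 ± 228 in Cx30 KO, for a log2 ratio of -0.83, and *Ndrg1*, which is also abundant in myelinating cells, had 7209 ± 721 and 4118 ± 412, for a log2 ratio of -0.74. Both passed as lower, while *Vegfa*, *Bnip3* and *Ddit4* had log2 ratios of -0.07, -0.12 and 0.04. The probes of *Vegfa* ranged from -0.32 to 0.63. Of 12 glucose-sensing factors and targets, with a median of 0.04, *Arrdc4* passed as higher, with 655 ± 65.6 in WT and 990 ± 99.1 in Cx30 KO and a log2 ratio of 0.67, but its other probe lay at -0.44. *Txnip*, the best known gene of that list, had a log2 ratio of -0.33 on its brighter probe and of 0.21 on the other.

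**Figure D4:**
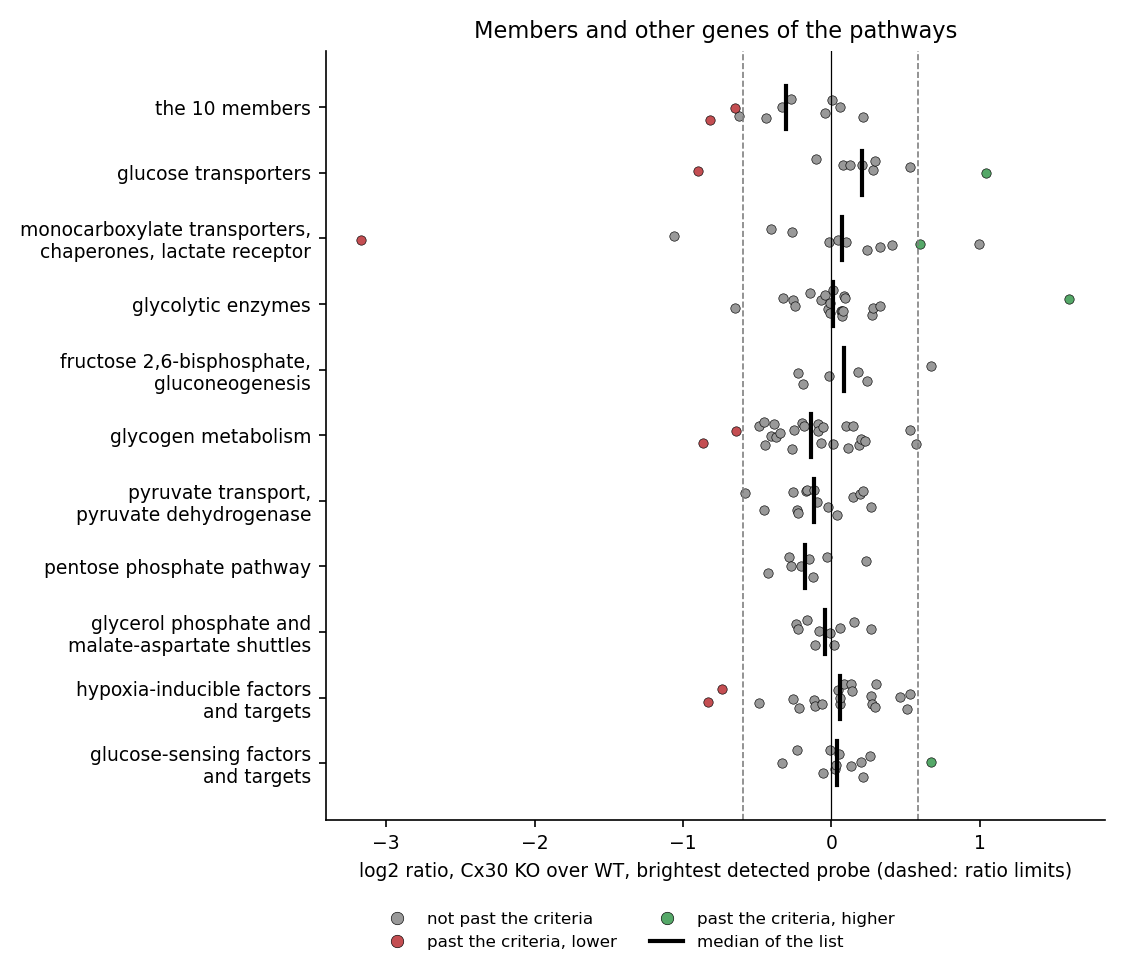
Log2 ratio of Cx30 KO over WT (x axis) for the 10 genes and for the other genes of the pathways, by list, on the brightest detected probe of each gene, with list medians as black bars, genes past the criteria in red or green, and dashed ratio limits. The member median is -0.30 and the list medians lie between -0.18 and 0.21; the leftmost point, *Hcar1*, is a measured value not well above background in Cx30 KO.

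The promoters of *Slc16a1*, *Pfkfb3* and *Ldha* are shown because they share the core letters that hypoxia-inducible factors bind, while the first pair of genes was lower and *Ldha* was level. The 250 bases before the RefSeq start sites were searched for ACGTG and GCGTG on both strands. These letters were in 9 of 10 windows of the 8 members that have one, and in 38.6% of all 32851 windows of that length. Both strings contain CG, and the windows compared were not matched for CG content. *Pfkfb3* and *Ldha* each gave more than 1 window, and the difference between the shares was not tested. Their matches, in capitals on the printed strand, include CACGTG, which holds ACGTG on both strands and is also the E-box letters. *Slc16a1* and *Pfkfb3*, past the criteria as lower, and *Ldha*, which was level, all hold matches, while *Gys1* holds none. A match describes the letters and is not evidence of binding. The coordinates below are those of GRCm38.p6, a different build from that of the probes.
Slc16a1, chr3:104638414-104638663, plus strand: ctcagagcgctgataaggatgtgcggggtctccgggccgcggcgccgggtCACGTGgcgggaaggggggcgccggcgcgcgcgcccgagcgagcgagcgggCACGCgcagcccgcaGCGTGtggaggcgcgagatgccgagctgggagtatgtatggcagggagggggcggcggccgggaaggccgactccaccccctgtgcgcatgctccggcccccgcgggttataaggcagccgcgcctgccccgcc
Pfkfb3, upstream start, chr2:11553930-11554179, minus strand: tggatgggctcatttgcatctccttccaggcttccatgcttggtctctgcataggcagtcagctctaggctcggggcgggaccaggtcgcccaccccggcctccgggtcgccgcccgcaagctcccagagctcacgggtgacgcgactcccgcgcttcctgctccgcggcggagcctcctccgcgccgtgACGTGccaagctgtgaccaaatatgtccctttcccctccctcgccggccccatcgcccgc
Pfkfb3, downstream start, chr2:11502091-11502340, minus strand: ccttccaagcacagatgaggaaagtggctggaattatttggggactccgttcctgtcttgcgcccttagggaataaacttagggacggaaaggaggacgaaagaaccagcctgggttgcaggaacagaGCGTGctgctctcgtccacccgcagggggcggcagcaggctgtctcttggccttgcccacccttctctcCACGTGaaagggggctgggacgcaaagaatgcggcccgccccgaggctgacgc
Ldha, upstream start, chr7:46845554-46845803, plus strand: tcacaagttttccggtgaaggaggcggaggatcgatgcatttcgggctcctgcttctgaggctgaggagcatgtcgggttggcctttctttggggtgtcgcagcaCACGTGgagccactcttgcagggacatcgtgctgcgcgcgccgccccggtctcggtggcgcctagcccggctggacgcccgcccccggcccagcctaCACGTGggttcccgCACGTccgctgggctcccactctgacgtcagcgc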

How the data were processed

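Total RNA from pooled striata was labelled with Cy3 and hybridised to 1-colour 60-base Agilent mouse arrays, both on 1 slide. The deposited scanner files hold signal intensity for each spot, background-subtracted by the authors with Agilent Feature Extraction (10.7.1.1 in the file header, 9.5.1.1 in the submitters' processing notes). The authors' normalised intensity table matched quantile-normalised processed signals within 1% for 99.99% of values and was an alternative. Here, control and outlier spots were left out, log2 processed signals were averaged by probe, and each array's 75th percentile was subtracted (Python 3.11.15, pandas 2.3.3, limma 3.58.1 in R 4.3.3 for normexp). The 33910 probes well above background on at least 1 array were kept, with 32019 above it in WT and 32961 in Cx30 KO. Replicate spots had a median coefficient of variation of 2.73% over 296 probes in WT and 2.84% over 295 in Cx30 KO; precision is limited by having only 2 arrays.

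A gene was represented by its brightest detected probe. Symbols of list genes were updated through the RefSeq table, which changed 1897 probes, while members were matched by the symbol in the files. Z-scores used the 1000 nearest of all probes in signal, a choice made here, as the set is not given in the sources used here. Arrays without replicates allow no test. The members and lists were chosen with earlier results of these data known. All members are named with each detected probe, as are list genes past the criteria and, of lists without one, the gene farthest from 0. Some genes of the lists are counted but not reported here by name. Other genes named by role or value (*Bsg*, *Emb*, *Gapdh*, *Aldoa*, *Pgk1*, *Pkm*, *Hkdc1*, *Pfkfb2*, *Pfkfb4*, *Gbe1*, *Gyg*, *Ugp2*, *Pygb*, *Vegfa*, *Bnip3*, *Ddit4*, *Txnip*, *Itgam*) were chosen after their values were seen. The criteria and ratios were tested on simulated data. Scaling, background correction, source of values, dim-probe filter, Z-score set, ratio limits and the probe for a gene were varied.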

Additional observations from a re-analysis of the deposited data

How the results depend on the processing

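Across 11 alternatives, the 10 genes gave 110 log2 ratios, of which 105 stayed on the same side of the criteria. *Slc16a1* stayed between -0.87 and -0.78 and passed in 9 of 11, and *Pfkfb3* stayed between -0.70 and -0.59 and passed in 8. With the Z-score taken over all detected probes, *Slc16a1* (Z-score -1.40) and *Pfkfb3* (-1.12) no longer passed, the count of member probes past the criteria went from 2 to 0, and that of pathway genes from 10 to 2. With ratio limits of 2 and 0.5, the member probe count was again 0, since the log2 ratios of -0.82 and -0.65 miss the limit, and the pathway count was 3. With the mean of the probes of a gene, *Pfkfb3* was at -0.59 and did not pass. *Slc2a1*, *Slc16a7*, *Hk2* and *Gys1* were lower in all 11 and *Slc2a3* was higher in all 11, whereas *Slc16a3*, *Ldha* and *Ldhb* changed sign around 0 in 2, 1 and 2 of the 11. All genes past the criteria numbered 746 lower and 525 higher, 446 and 484 with the Z-score over all detected probes, 427 and 339 with the wider ratio limits, 578 and 401 with normexp correction, and 503 and 332 with probes above background on both arrays. The alternative of a Z-score among detected probes only was chosen after seeing the data. A log2 ratio of -0.64 came with a Z-score of -1.77 on the dim *Slc16a7* probe 3, and one of -0.65 with -2.30 on the brighter *Pfkfb3* probe.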
